A study of Mus musculus with 6 samples.

Results

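The genes described here encode the subunits, activators and assembly factors of the proteasome in mouse bone marrow-derived macrophages. They were chosen by symbol (Psma to Psmg followed by a number), which gave 47 genes of 26835 with values. RNA was sequenced 24 h after such cells had received either 10 µg of vesicles shed by K7M2 mouse osteosarcoma cells (K7M2-EV) or PBS (phosphate-buffered saline). There were 3 libraries in the K7M2-EV group and 3 in the PBS group, described by the submitters as independent experiments. All cells were wild type, came from femurs and tibias of BALB/c mice aged 5 to 8 weeks, and had been grown for 6 days with M-CSF at 25 ng/ml before treatment. The labels give no sorting step, and in such bulk RNA fewer cells of a type and less RNA per cell cannot be told apart. The comparison asked how osteosarcoma vesicles change macrophage gene expression.

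The proteasome is the protease that degrades proteins tagged with ubiquitin. Its barrel-shaped core is built of rings of alpha and beta subunits, and 3 of the beta subunits (encoded by Psmb5, Psmb6 and Psmb7) cut peptide bonds. In cells exposed to interferons, and constitutively in many immune cells, their immune counterparts (encoded by Psmb8, Psmb9 and Psmb10) are built into newly made cores, which changes the peptides offered to MHC class I. A regulatory particle of ATPases (Psmc) and other subunits (Psmd) recognises and unfolds substrates, and the activators (Psme) open the core without it.

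Most proteasome genes were higher after vesicles, by modest amounts. Of the 47 genes, 36 were higher and 3 lower with K7M2-EV, and 8 were not called (limma on log2(FPKM + 1), Benjamini-Hochberg adjusted p under 0.05 over 13009 genes). FPKM are fragments scaled to exon length and to sequencing depth. Among all genes tested, 18.4% were called higher and 35.6% lower, 54% in either direction. The median log2 fold change was 0.34 over the proteasome genes and -0.12 over all genes tested. The balance over all genes depended on the scaling. As deposited, 34.1% of all calls were higher (2395 higher and 4631 lower), and after median-of-ratios scaling 50.5% were (3445 and 3376), with the median of all genes at -0.0024 and that of the proteasome genes at 0.47. Under that scaling 40 proteasome genes were higher and 1 lower. All 47 passed the filter of at least 1 FPKM in at least 3 libraries. The summed level of the 47 genes was 1247, 1210 and 1214 FPKM in the K7M2-EV libraries and 778.3, 864.9 and 837.3 FPKM in the PBS libraries, so the groups did not overlap.

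The size of the change differed widely between genes. Only 4 genes reached a 2-fold difference on the log2(FPKM + 1) scale, namely Psma6, Psme2, Psmd10 and Psmb8, and 12 reached 1.5-fold. In 37 genes every K7M2-EV library was above every PBS library, and in 3 every K7M2-EV library was below, against 21.8% and 42% of all genes tested (63.8% in either direction). Of the 36 higher calls, 28 held whichever single library was left out and 22 held in all 16 alternatives tried. The PBS libraries varied more, with PBS replicate 1 the lowest of its group in 35 of 47 genes and PBS replicate 2 the highest in 34. The median coefficient of variation was 3.95% with K7M2-EV and 7.16% with PBS.

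**Figure D1:**
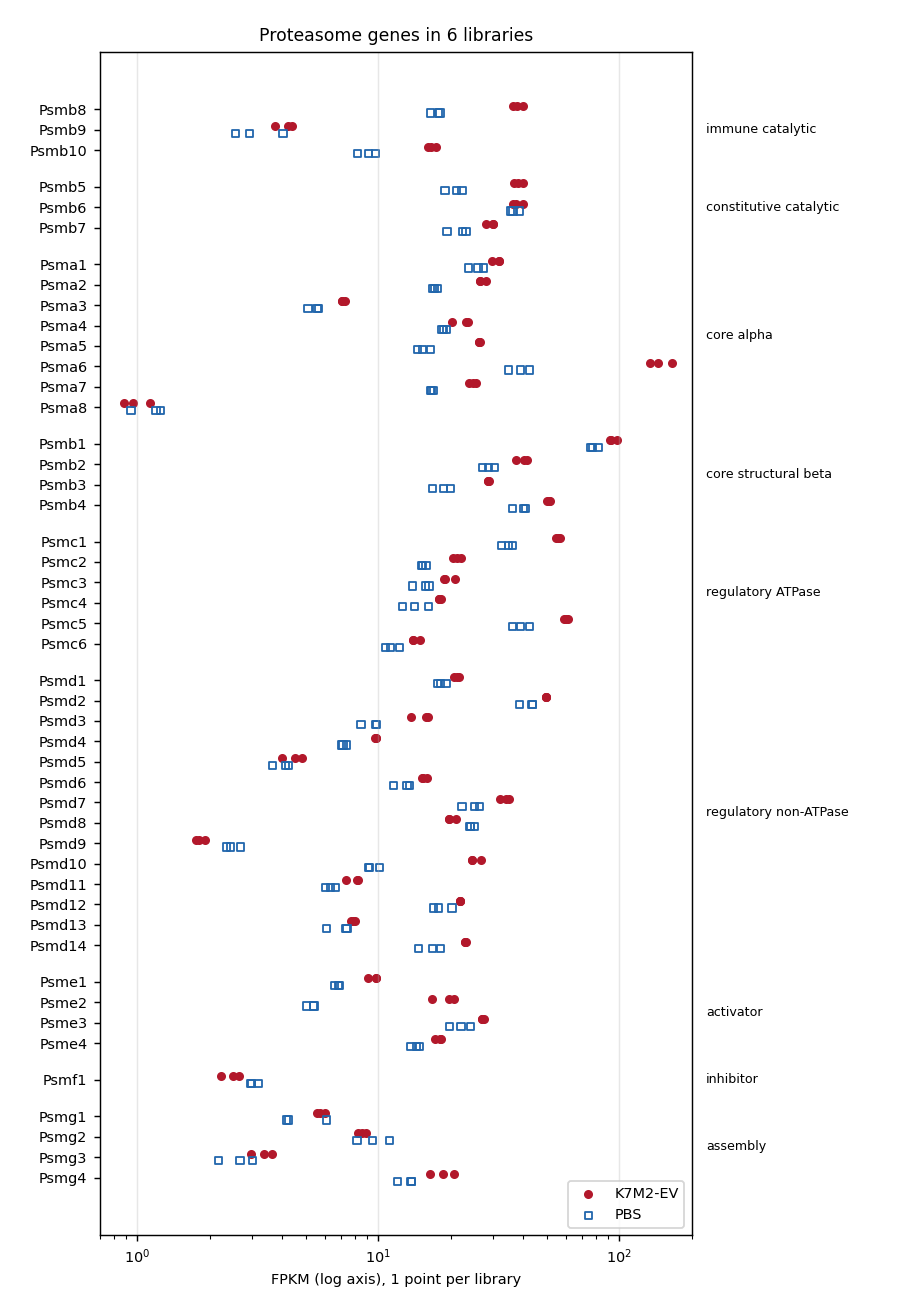
Level of each of the 47 proteasome genes in FPKM on a log axis, 1 point per library, with K7M2-EV libraries as filled circles above PBS libraries as open squares, grouped by role. Psma6 at 134 to 166 FPKM with K7M2-EV and 34.6 to 42.4 FPKM with PBS has the widest gap.

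The immune catalytic genes differed among themselves. Psmb8, which encodes the immune chymotrypsin-like subunit, was at 39.98, 36.2 and 37.6 FPKM with K7M2-EV and at 16.5, 18.1 and 17.8 FPKM with PBS. All K7M2-EV libraries were thus at about the same level and well above all PBS libraries, a log2 fold change of 1.08 ± 0.061 (SE, limma, adjusted p = 3.02e-05). Psmb10, the immune trypsin-like subunit gene, was at 16.5, 17.3 and 16.1 FPKM with K7M2-EV and at 9.13, 8.18 and 9.76 FPKM with PBS. The groups did not overlap there either (log2 fold change 0.82 ± 0.0706, SE, limma, adjusted p = 0.000166).

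Psmb9, whose product takes the place of the caspase-like subunit encoded by Psmb6, was the lowest of the catalytic genes and was not called. It was at 4.20, 4.38 and 3.72 FPKM with K7M2-EV and at 2.92, 2.55 and 4.02 FPKM with PBS. PBS replicate 3 lay above K7M2-EV replicate 3, so the groups overlapped (log2 fold change 0.31 ± 0.135, SE, limma, adjusted p = 0.0983). Without PBS replicate 3 the gene was called higher (0.45, adjusted p = 0.0117), as it was after median-of-ratios scaling (adjusted p = 0.0392) and quantile normalization (0.0398). The exon model of Psmb9 spans 3660 bases, against 899 for Psmb5, and FPKM divide by that length, so levels set between these genes depend on the models.

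The constitutive catalytic genes were no more uniform. Psmb5, the constitutive chymotrypsin-like subunit gene, was at 37.9, 36.8 and 39.9 FPKM with K7M2-EV and at 18.9, 22.3 and 21.2 FPKM with PBS. Its rise, a log2 fold change of 0.85 ± 0.0726 (SE, limma, adjusted p = 0.000158), came with groups that did not overlap. Psmb7, which encodes the trypsin-like subunit, rose by less, at 30.1, 27.9 and 29.98 FPKM with K7M2-EV and at 19.3, 23.1 and 22.4 FPKM with PBS (log2 fold change 0.43, adjusted p = 0.00431, limma). For Psmb6, the caspase-like subunit gene, the values were 37.4, 36.3 and 39.9 FPKM with K7M2-EV and 35.4, 36.2 and 38.7 FPKM with PBS. The groups overlapped almost fully and no change was called (log2 fold change 0.04 ± 0.061, SE, limma, adjusted p = 0.607).

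Each immune gene was then set against the constitutive gene whose place its product takes, within each library. The ratio of Psmb8 to Psmb5 was 1.05, 0.986 and 0.942 with K7M2-EV and 0.872, 0.810 and 0.841 with PBS. The ratio of Psmb10 to Psmb7 was 0.549, 0.620 and 0.537 with K7M2-EV and 0.474, 0.353 and 0.436 with PBS. In both pairs every K7M2-EV library was above every PBS library, with differences of 0.23 and 0.39 on the log2 scale with 1 FPKM added to each gene. The exact two-sided permutation p was 0.1 for each, the smallest that 3 against 3 libraries allow, and 0.2 after adjustment over 4 ratios. The ratio of Psmb9 to Psmb6 was 0.112, 0.121 and 0.0934 with K7M2-EV and 0.0823, 0.0704 and 0.104 with PBS, and these overlapped (exact permutation p = 0.2, adjusted p = 0.2). Together the immune genes made up 34.3% to 36.5% of the summed FPKM of the 6 catalytic genes with K7M2-EV and 26.1% to 27.9% with PBS, a description with no test. This share and the ratio of Psmb8 to Psmb5 rest on the Psmb5 row. Psmb5 shares transcript sequence with the processed pseudogene Gm3375. Gm3375 averaged 112 FPKM with K7M2-EV and 60.6 FPKM with PBS, against 38.2 and 20.8 FPKM for Psmb5. Reads may have been split between them, so the levels of this ratio and share are uncertain.

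**Figure D2:**
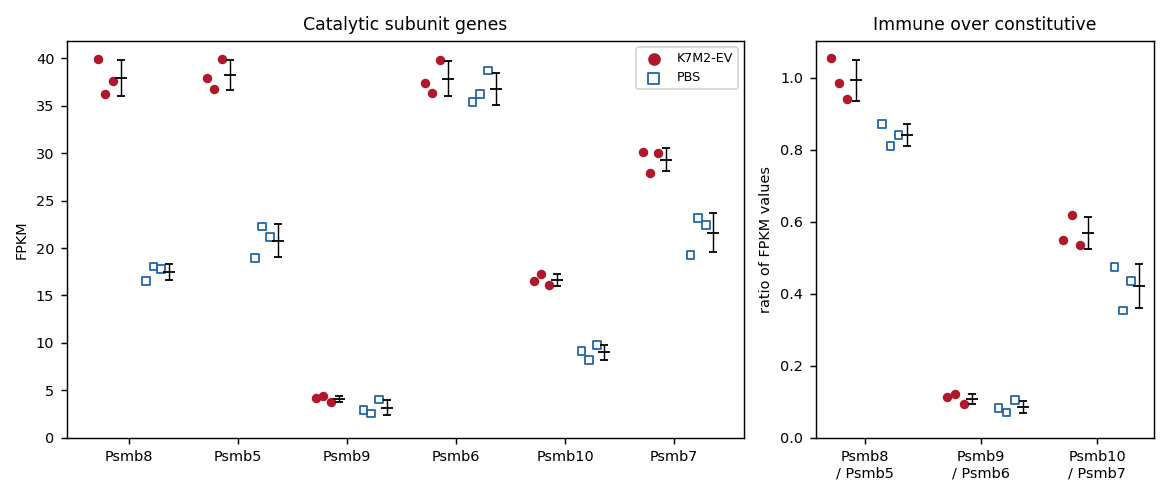
Left, FPKM of the 6 catalytic genes in each library, each immune gene beside its constitutive counterpart, with K7M2-EV left of PBS and a bar for the mean and SD of 3 libraries. Right, the ratio of each immune gene to its counterpart within a library. The ratio of Psmb8 to Psmb5 was 0.942 to 1.05 with K7M2-EV and 0.810 to 0.872 with PBS. Its level is uncertain because Psmb5 shares transcript sequence with Gm3375.

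On GRCm38, Psmb8 (chr17:34197721-34201454, plus strand) and Psmb9 (chr17:34181987-34187764, minus strand) lie in the MHC region on either side of Tap1, a gene of the peptide transporter. The RefSeq starts of Psmb9 and Tap1 face away from each other with 225 bases between them. The 250 bases before each RefSeq start were searched on both strands for 5 motifs. These were the interferon-response element (GAAA, any 2 bases, GAAA), an NF-κB site (GGGA, any 2 bases, TTCC), the antioxidant-response core TGACNNNGC bound by NRF factors, the CCAAT box, and the STAT site TTCNNNGAA. RefSeq windows (GRCm38.p6) were found for 39 of the 47 genes. The windows before Psmb5 and Psmb6 are shown because these catalytic genes differed in response, that before Psma6 because this gene rose most, and 30 bases around the single match before Psmb8 and before Psmb9 because they are immune genes. They run 5′ to 3′ with motif matches in capitals. The stretches of Psmb8 and Psmb9 and 27 bases of the Psmb5 window lie in annotated untranslated exons.
Psmb5, chr14:54617996-54618245, minus strand: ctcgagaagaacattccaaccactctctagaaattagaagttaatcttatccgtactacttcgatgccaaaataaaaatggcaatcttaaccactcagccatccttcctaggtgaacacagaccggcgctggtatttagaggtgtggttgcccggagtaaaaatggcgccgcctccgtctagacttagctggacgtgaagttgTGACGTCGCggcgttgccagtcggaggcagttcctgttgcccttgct
Psmb6, chr11:70525107-70525356, plus strand: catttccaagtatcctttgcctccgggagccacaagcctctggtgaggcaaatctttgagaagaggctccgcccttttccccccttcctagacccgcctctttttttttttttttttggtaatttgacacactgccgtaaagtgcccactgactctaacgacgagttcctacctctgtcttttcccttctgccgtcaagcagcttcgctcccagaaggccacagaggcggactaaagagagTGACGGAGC
Psma6, chr12:55383972-55384221, plus strand: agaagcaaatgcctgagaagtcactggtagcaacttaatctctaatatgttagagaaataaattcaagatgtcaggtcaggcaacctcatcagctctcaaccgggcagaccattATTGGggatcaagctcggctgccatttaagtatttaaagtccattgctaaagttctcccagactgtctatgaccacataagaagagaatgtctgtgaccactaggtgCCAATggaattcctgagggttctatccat
Psmb8, chr17:34198087-34198116, plus strand: gtcctccgctgTTCCCAGAAgatgcccccc
Psmb9, chr17:34187331-34187360, minus strand: cctgcaccgcgcgcagccgctgATTGGaaa

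The antioxidant-response core stood before both Psmb5, which rose, and Psmb6, which was not called. It was found in 5 of 42 proteasome windows (11.9%) and in 10.2% of all 32851 windows of 250 bases. The STAT site before Psmb8 had 1 other match, before Psmg1 (4.76% of proteasome windows against 7.02% of all). The interferon-response letters were in the windows of Psmb3, Psmd4 and Psmd9 (7.14% against 2.98%), and the NF-κB letters in that of Psme4 (2.38% against 1.21%). CCAAT was found in 31% of proteasome windows and 33.8% of all. These matches describe letters in short windows and not binding.

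The alpha subunits form the outer rings of the core, whose gate they close. Of 8 genes, 7 were called higher, against 18.4% of all genes tested. Psma6 was at 166, 134 and 146 FPKM with K7M2-EV and at 34.6, 42.4 and 38.8 FPKM with PBS. It was the most changed proteasome gene and, with K7M2-EV, also the one with the highest level (log2 fold change 1.92 ± 0.106, SE, limma, adjusted p = 2.73e-05). Psma5 and Psma2 followed. Psma5 was at 26.2, 26.4 and 26.1 FPKM with K7M2-EV and at 14.5, 16.5 and 15.2 FPKM with PBS, a log2 fold change of 0.73. Psma2 was at 28.1, 26.4 and 26.5 FPKM with K7M2-EV and at 16.8, 17.7 and 17.1 FPKM with PBS, a log2 fold change of 0.62. In all 3 genes the groups did not overlap. Psma7, Psma3, Psma1 and Psma4 rose by 0.24 to 0.54, and none of these had overlapping groups. The call of Psma4 was lost without K7M2-EV replicate 1 or 2 or PBS replicate 1 or 3, and that of Psma1 without K7M2-EV replicate 1 or 3. Psma8, known as the testis-specific alternative to Psma7, stayed near 1 FPKM, at 0.957, 0.879 and 1.13 FPKM with K7M2-EV and 0.940, 1.25 and 1.20 FPKM with PBS, and was not called.

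The noncatalytic beta subunit genes were all called higher, 4 of 4, against 18.4% of all genes tested. Psmb3 was at 28.7, 28.5 and 28.9 FPKM with K7M2-EV and at 16.8, 19.96 and 18.7 FPKM with PBS, a log2 fold change of 0.61. Psmb2 was at 41.7, 40.4 and 37.3 FPKM with K7M2-EV and at 28.8, 27.1 and 30.3 FPKM with PBS, a log2 fold change of 0.46. In neither gene did the groups overlap. Psmb4 was at 51.0, 49.998 and 51.7 FPKM with K7M2-EV and at 36.1, 40.9 and 40.2 FPKM with PBS (0.38). Psmb1 was the gene with the highest level in PBS cells, averaging 94.0 ± 3.88 FPKM with K7M2-EV and 78.6 ± 3.13 FPKM with PBS (SD, n = 3 each), and had the smallest change of the 4 (0.26, adjusted p = 0.0107, limma). The core genes as a whole (18, catalytic ones included) summed to 687.1, 648.6 and 660.4 FPKM with K7M2-EV and to 391, 426.3 and 420.9 FPKM with PBS.

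In the regulatory particle the ATPase genes changed together. All 6 were called higher, against 18.4% of all genes tested, and rose by 0.30 to 0.69 on the log2 scale. Psmc1 was at 56.0, 57.0 and 54.7 FPKM with K7M2-EV and at 32.4, 36.0 and 34.7 FPKM with PBS (log2 fold change 0.69, adjusted p = 0.000149, limma). Psmc5 was at 60.1, 59.0 and 61.1 FPKM with K7M2-EV and at 36.2, 42.4 and 39.0 FPKM with PBS, a log2 fold change of 0.61. In both genes the groups were far apart. Psmc2 was at 22.2, 20.5 and 21.2 FPKM with K7M2-EV and at 15.3, 15.8 and 15.1 FPKM with PBS (0.44), and the other 3 genes rose by 0.30 to 0.34. Psmc4 lost its call without K7M2-EV replicate 1 or 3 or PBS replicate 3, and 3 of the 6 genes were called when both libraries of replicate 3 were left out.

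The other regulatory subunit genes were more mixed, with 10 of 14 higher, 2 lower and 2 not called. All genes tested had 18.4% called higher and 35.6% called lower. Psmd10 encodes gankyrin, a chaperone that holds an ATPase during assembly and is known as an oncoprotein of liver cancer. It was at 24.5, 24.5 and 26.6 FPKM with K7M2-EV and at 9.19, 10.1 and 9.13 FPKM with PBS, with a wide gap between the groups (log2 fold change 1.32 ± 0.0613, SE, limma, adjusted p = 1.39e-05). The genes of 2 other chaperones of the ATPase ring did otherwise. Psmd9 was lower, at 1.7996, 1.76 and 1.91 FPKM with K7M2-EV and 2.34, 2.44 and 2.69 FPKM with PBS (log2 fold change -0.31, adjusted p = 0.0083, limma). Psmd5 overlapped between the groups, at 4.53, 4.80 and 3.98 FPKM with K7M2-EV and 4.12, 3.64 and 4.23 FPKM with PBS, and was not called.

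Among structural subunits of this particle, Psmd3 rose most, at 15.7, 16.1 and 13.7 FPKM with K7M2-EV and 8.47, 9.85 and 9.77 FPKM with PBS, a log2 fold change of 0.64. Psmd14, the deubiquitinase that removes ubiquitin chains, and its partner Psmd7 rose by 0.46 and 0.45. Psmd14 was at 23.0, 23.0 and 23.0 FPKM with K7M2-EV and at 14.7, 18.1 and 16.8 FPKM with PBS. The ubiquitin receptor gene Psmd4 rose by 0.39, and Psmd11, Psmd6, Psmd12, Psmd2 and Psmd1 by 0.20 to 0.28. Of these last 5, Psmd11 was called whichever single library was left out. Psmd6 lost its call without K7M2-EV replicate 1, Psmd1 without PBS replicate 3, Psmd2 without K7M2-EV replicate 1 or 3, and Psmd12 in every omission but that of PBS replicate 2. Psmd13 had groups that did not overlap but missed the threshold (log2 fold change 0.16, adjusted p = 0.123, limma).

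Psmd8, a subunit of the lid, was lower. It was at 21.1, 19.7 and 19.7 FPKM with K7M2-EV and at 24.0, 24.1 and 25.1 FPKM with PBS (log2 fold change -0.26, adjusted p = 0.00487, limma). The 3 lower calls did not all hold under other scalings. With median-of-ratios scaling Psmd8 was at -0.12 (adjusted p = 0.0951) and Psmf1 at -0.12 (0.163), and after quantile normalization Psmd9 was at -0.10 (0.283) and Psmf1 at -0.06 (0.465), all on the log2 scale. Psmf1, which encodes an inhibitor of the core, was at 2.49, 2.64 and 2.23 FPKM with K7M2-EV and at 2.99, 3.19 and 2.95 FPKM with PBS. Its fall of 0.23 (adjusted p = 0.029, limma) was also lost in every omission of a single library but that of K7M2-EV replicate 2.

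**Figure D3:**
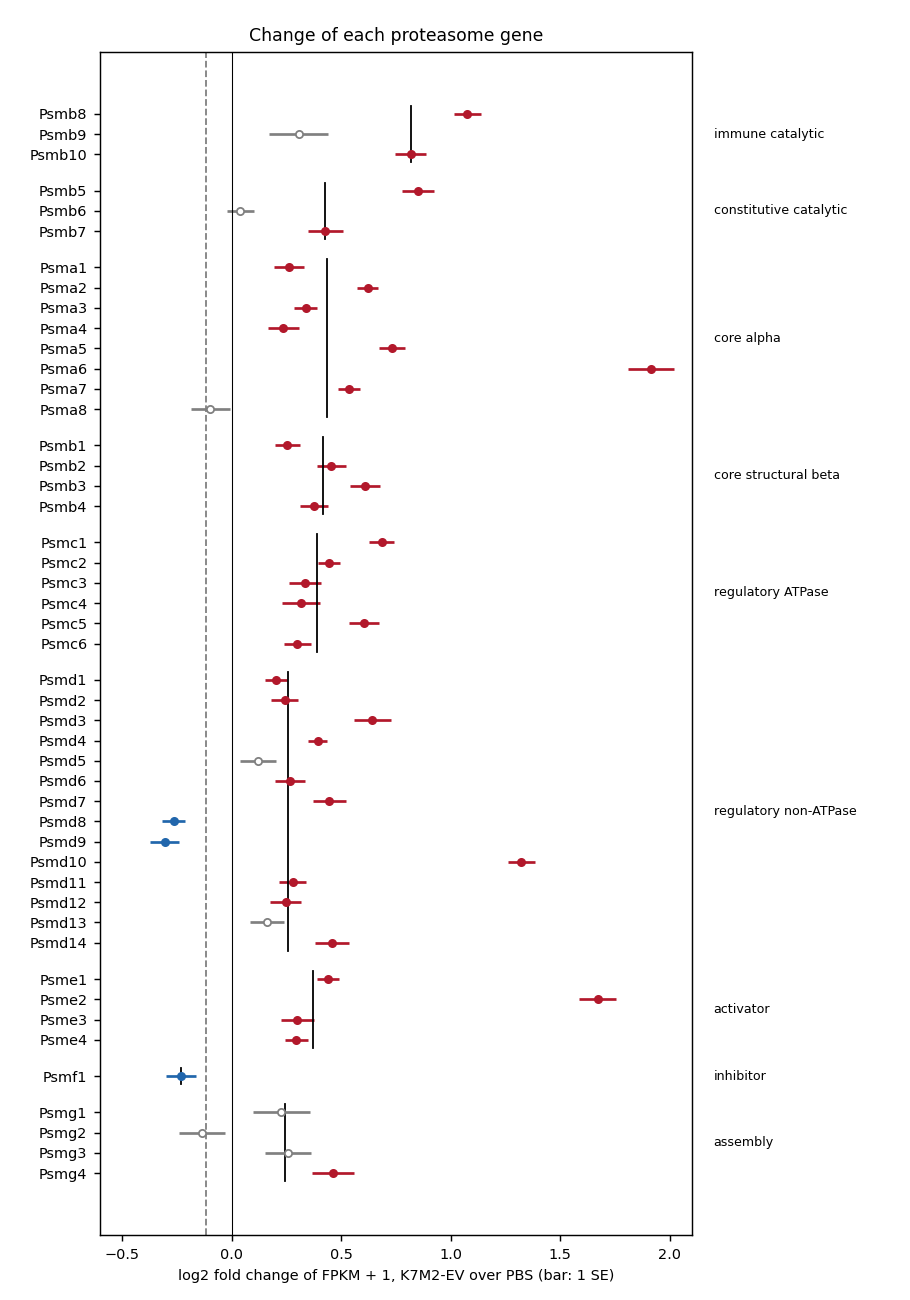
Log2 fold change of FPKM + 1, K7M2-EV over PBS, for each of the 47 genes with 1 SE. Red points were called higher, blue lower and open points neither; a short vertical line marks the median of each role and the dashed line the median of all genes tested at -0.12.

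All 4 activator genes were called higher, against 18.4% of all genes tested. Psme1 and Psme2 encode the subunits of the interferon-inducible activator PA28, which promotes the supply of class I peptides. They lie near each other on chromosome 14 (chr14:55578123-55581529 and chr14:55587441-55591113), with Emc9 between them. Psme2 was at 20.7, 19.7 and 16.7 FPKM with K7M2-EV and at 5.37, 5.41 and 5.02 FPKM with PBS, a log2 fold change of 1.67 ± 0.0835 (SE, limma, adjusted p = 1.91e-05). Psme1 changed far less, at 9.75, 9.08 and 9.78 FPKM with K7M2-EV and 6.58, 6.82 and 6.89 FPKM with PBS (0.44, adjusted p = 0.000553, limma). In both genes the groups did not overlap.

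Psme3 and Psme4 encode activators found in the nucleus. Psme3 averaged 27.2 ± 0.348 FPKM with K7M2-EV and 21.9 ± 2.198 FPKM with PBS, and Psme4 averaged 17.8 ± 0.523 FPKM with K7M2-EV and 14.3 ± 0.615 FPKM with PBS (SD, n = 3 each). Both had a log2 fold change of 0.30, and Psme3 lost its call without K7M2-EV replicate 3. Library by library, Psme3 was at 27.0, 26.9 and 27.6 FPKM with K7M2-EV and at 19.7, 24.1 and 22.1 FPKM with PBS. For Psme4 the values were 18.01, 18.2 and 17.2 FPKM with K7M2-EV and 14.9, 14.4 and 13.7 FPKM with PBS. Neither gene had overlapping groups. The ratio of Psme1 to Psme4 was 0.541, 0.499 and 0.568 with K7M2-EV and 0.442, 0.472 and 0.504 with PBS, and the groups overlapped (exact permutation p = 0.2, adjusted p = 0.2).

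Of the 4 assembly genes 1 was called higher (25%), near the 18.4% called higher over all genes tested. Psmg1 with Psmg2, and Psmg3 with Psmg4, encode chaperone pairs that help the alpha ring to form. Psmg4 was higher, at 18.6, 20.6 and 16.4 FPKM with K7M2-EV and 11.998, 13.8 and 13.7 FPKM with PBS, a log2 fold change of 0.46 (adjusted p = 0.00667, limma). Psmg1, Psmg2 and Psmg3 had log2 fold changes of 0.23, -0.14 and 0.26 and were not called. With the replicate number as a block Psmg3 was called as well (adjusted p = 0.0342, limma), so that 2 of 4 were higher. Psmg1 was at 6.10 FPKM in PBS replicate 2, against 4.25 and 4.16 FPKM in the other PBS libraries and 5.57 to 5.99 FPKM with K7M2-EV. It was called without PBS replicate 2 (0.38, adjusted p = 0.00388, limma). After median-of-ratios scaling 3 of 4 assembly genes were higher, Psmg1 and Psmg3 among them (adjusted p = 0.0443 and 0.0229, limma). Over all 13009 genes tested, 2495 were higher with the block and 3445 after median-of-ratios scaling.

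Several proteasome transcripts share sequence with other genes, so that the authors' counting may have split their reads. More than 10% of the 50-base words of the longest transcript recurred in transcripts of other genes for 8 of the 47 genes. For Psme2 the share was 59.3%, all with Psme2b, for Psmb5 57.1%, for Psma5 54.5% and for Psma3 22%. Psme2b, a gene of chromosome 11, was at 214, 188 and 204 FPKM with K7M2-EV and at 68.2, 62.4 and 67.1 FPKM with PBS, 9.58 to 12.2 times the level of Psme2 with K7M2-EV and 11.5 to 13.4 times with PBS. It was looked at after its values were seen, and it rose by 1.60 on the log2 scale, close to Psme2. The processed pseudogene Gm13835, which shares sequence with Psma3, averaged 75.0 ± 1.05 FPKM with K7M2-EV and 54.9 ± 4.68 FPKM with PBS, against 7.14 and 5.44 FPKM for Psma3.

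Other such pairs were mixed. Gm3375 averaged 112 ± 1.91 FPKM with K7M2-EV and 60.6 ± 6.56 FPKM with PBS (SD, n = 3 each), a log2 fold change of 0.88 beside 0.85 for Psmb5. Gm8394 had 0.75 beside 0.73 for Psma5, and Gm9575 had 0.65 beside 0.69 for Psmc1. Gm6542 was not called (0.18, adjusted p = 0.182, limma) where Psma4 was at 0.24. Gm5422, which shares 25.2% of the words of Psmd2, averaged 0.795 ± 0.0798 FPKM with K7M2-EV and 0.846 ± 0.257 FPKM with PBS (SD, n = 3 each) and was below the filter, while Psmd2 rose by 0.24. For Psmb3 the share was 10.1%, with AC114990.1, which was not analysed here. Levels of Psme2, Psma3, Psmb5, Psma5, Psma4, Psmc1, Psmd2 and Psmb3 are therefore uncertain, and a level given here is only that of the row with that symbol. Exons of 10 of the 47 genes overlap a gene on the opposite strand. The longest overlap is that of Psmd9, which was called lower, with Gm26745, 1849 of 7248 exon bases. Psmb8 overlaps Gm20496 over 498 bases and Psmb9 overlaps Tap1 over 212. Whether the authors counted by strand is not stated in the labels.

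**Figure D4:**
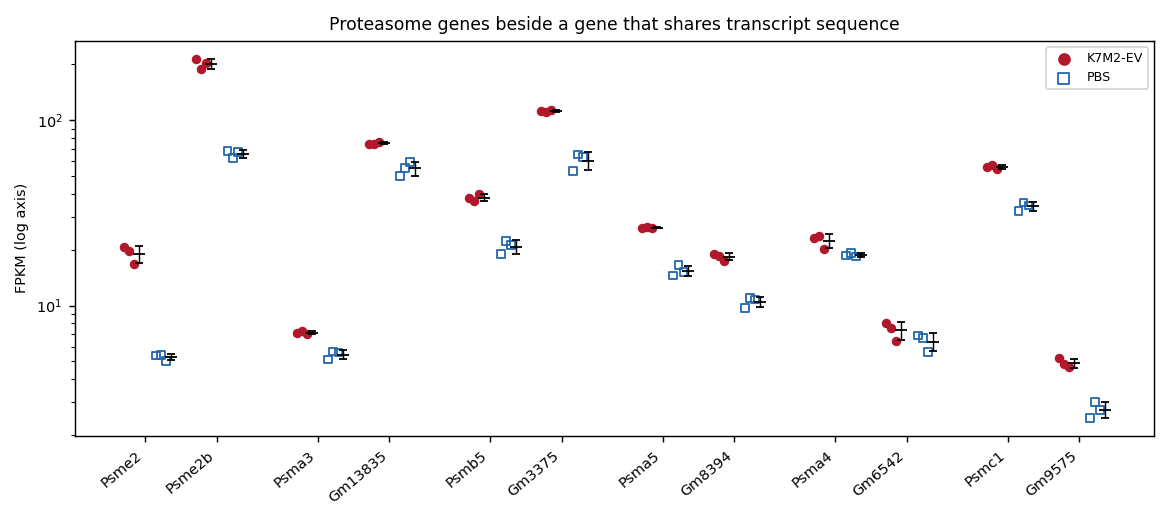
FPKM on a log axis for 6 proteasome genes, each beside the gene that shares most transcript sequence with it, with K7M2-EV left of PBS in each gene and a bar for the mean and SD of 3 libraries. Psme2b at 188 to 214 FPKM with K7M2-EV and 62.4 to 68.2 FPKM with PBS stands far above Psme2 in every library.

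Genes that work beside the proteasome were taken from 5 lists. Their counts stand beside 18.4% called higher and 35.6% called lower over all genes tested. Of 10 partner genes tested, 4 were higher and 1 lower (median log2 fold change 0.15). Ecpas, which encodes a proteasome adaptor, was at 18.2, 17.8 and 19.3 FPKM with K7M2-EV and at 13.1, 14.2 and 13.0 FPKM with PBS (0.43). The deubiquitinase gene Uchl5 fell by 0.37, to 3.02, 3.49 and 3.24 FPKM with K7M2-EV, against 4.13, 4.70 and 4.67 FPKM with PBS. Pomp, the chaperone gene of core maturation, rose by 0.30. Of 16 genes of ubiquitin supply and shuttling, 6 were higher and 4 lower (median 0.13). The ubiquitin-activating enzyme gene Uba1 averaged 76.5 ± 0.760 FPKM with K7M2-EV and 53.9 ± 2.00 FPKM with PBS (SD, n = 3 each), and Vcp, an unfoldase gene, rose by 0.49. Ddi2, whose protease activates the transcription factor encoded by Nfe2l1, was at 8.81, 8.41 and 8.66 FPKM with K7M2-EV and at 14.9, 14.4 and 15.2 FPKM with PBS, a fall of 0.72.

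Regulators of proteasome genes went both ways, with 5 of 12 tested higher and 4 lower (median 0.02). All genes tested gave 18.4% higher and 35.6% lower. Nfe2l1, which drives the recovery of proteasome genes when proteasomes are inhibited, was at 6.24, 7.55 and 6.26 FPKM with K7M2-EV and at 3.20, 4.31 and 3.34 FPKM with PBS. The groups did not overlap (log2 fold change 0.74, adjusted p = 0.00198, limma). Nfkb1, an NF-κB subunit gene, averaged 13.7 ± 0.885 FPKM with K7M2-EV and 6.90 ± 0.0753 FPKM with PBS (SD, n = 3 each). Stat2 rose by 0.79. Irf1, a known activator of immune proteasome genes, fell by 0.47, and Irf2, Irf8 and Nfe2l2 fell by 0.61, 0.55 and 0.47. Nlrc5, the class I transactivator gene, was at 2.17, 2.24 and 2.06 FPKM with K7M2-EV and at 1.801, 1.97 and 2.1003 FPKM with PBS and was not called.

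Peptide loading genes, which act on the products of the proteasome, were higher in 9 of 11 cases and lower in none (median 0.57). Of all genes tested, 18.4% were higher and 35.6% lower. Tapbp, the tapasin gene, averaged 139 ± 10.5 FPKM with K7M2-EV and 55.0 ± 4.26 FPKM with PBS (SD, n = 3 each). B2m and Tap1 rose by 0.99 and 0.54, and Tap1 had no overlap between groups where its neighbour Psmb9 did. H2-K1 was at 53.2, 21.2 and 57.4 FPKM with K7M2-EV and at 8.78, 9.01 and 9.40 FPKM with PBS, so K7M2-EV replicate 2 lay well under the other libraries of its group. Of 10 peptidase genes, 3 were higher and 1 lower (median 0.14), beside the same shares of all genes tested. Rnpep and Prep rose by 0.65 and 0.40, while Lnpep (0.16) and Nln (-0.19) passed narrowly, with adjusted p = 0.0474 and 0.0409 (limma). With the replicate block neither was called (adjusted p = 0.0769 and 0.0559, limma).

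**Figure D5:**
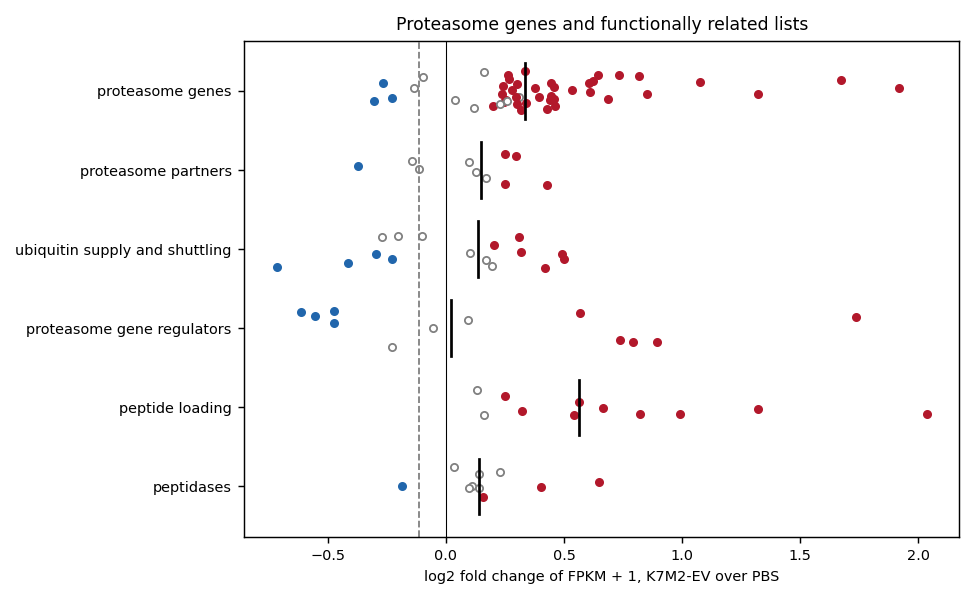
Log2 fold change of FPKM + 1, K7M2-EV over PBS, for the 47 proteasome genes and the tested genes of 5 related lists, 1 point per gene, red for called higher, blue for lower and open for neither. Thick lines mark medians, 0.34 for proteasome genes and 0.57 for peptide loading, and the dashed line the median of all genes tested at -0.12.

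The labelled cell type was checked against markers. All 8 macrophage markers were expressed, the lowest being Mertk at 6.57 to 7.39 FPKM with K7M2-EV and 5.63 to 7.01 FPKM with PBS. Against 18.4% higher and 35.6% lower over all genes tested, 6 of these markers were called higher and 1 lower, and Mertk was not called. Their summed level was 12690 to 14170 FPKM with K7M2-EV and 4235 to 5121 FPKM with PBS. Adgre1, the F4/80 gene, was at 1965, 1617 and 1891 FPKM with K7M2-EV and at 193.6, 140.4 and 176.9 FPKM with PBS, and Fcgr1 and Lyz2 rose by 1.58 and 1.54 on the log2 scale. Cd68 was lower, at 196.2, 195 and 215.8 FPKM with K7M2-EV and 426.6, 370.4 and 435.5 FPKM with PBS. The part of these marker changes in the proteasome values was not tested. The 4 markers of T, B and NK cells and the 5 of dendritic cells with a row were under 1 FPKM in all libraries. Mesenchymal markers summed to 204 to 568 FPKM with K7M2-EV and 122 to 288 FPKM with PBS, highest in replicate 2 of each group. Col1a1 was the largest part, at 128 to 354 FPKM with K7M2-EV and 65.4 to 155 FPKM with PBS, and its groups overlapped. Of 6 such markers tested, 0 were called higher and 1 lower. The lower 1 was Runx2 (log2 fold change -0.54, adjusted p = 0.00488, limma). The part of mesenchymal markers in the proteasome values was not tested. Of 7 neutrophil markers with a row, 3 were tested. S100a8 and Camp were called higher, and S100a9 was not called (log2 fold change -0.22, adjusted p = 0.662, limma). Summed levels were 39.6 to 44.3 FPKM with K7M2-EV and 3.02 to 5.46 FPKM with PBS. Most of that was S100a8, at 37.2 to 40.9 FPKM with K7M2-EV and 2.95 to 3.28 FPKM with PBS. The neutrophil genes Mpo, Ly6g, Ltf and Ngp were under 1 FPKM in all libraries. Without both libraries of replicate 2, 36 proteasome genes were higher.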

How the data were processed

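Each library came with its own table of 26883 rows, which the authors deposited as FPKM. The file headers give only the library name, so the unit was taken from the values. FPKM times exon length (GENCODE release M21, GRCm38) lay within 0.1 of a whole number for 72.2% to 73.1% of values worth at most 20 reads, where chance gives 20%, with 1 step per library. The steps imply 21436000 to 25606000 reads per library, and 48 to 10190 reads per proteasome gene and library. GRCm38, HISAT2 2.1.0, StringTie 1.3.4b, CASAVA 1.8 and edgeR appear, without roles, in the submitters' processing notes. GRCm38 is the genome of C57BL/6J, while these mice were BALB/c.

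From the deposited FPKM values 1 row without values was left out, and 47 rows of repeated symbols were dropped in favour of the row with the highest mean. Psmb11 was not analysed here. Genes reaching 1 FPKM in 3 or more libraries were fitted on log2(FPKM + 1), a scale that understates changes of low genes. The fit used limma 3.58.1 in R 4.3.3 (trend and robust settings, statmod 1.5.0). It was also tried on simulated data in which far fewer genes changed than were called here. That trial cannot test the balance of the calls in these data. Ratios were tested with exact permutations in scipy 1.17.1. Library numbers may pair the samples, a hint from the data that no label states. Deviations from the group mean correlated between libraries of one number (across genes, 0.317, 0.294 and 0.209). The fit without the block and the unpaired permutations stayed the main ones, so their p-values use no pairing. The limma p-values weigh a group difference against the spread between these libraries, moderated over all genes tested. Permutation p-values set a difference among those given by all regroupings of the libraries. Members, lists, motifs and tests were chosen with earlier results of these data known, so counts over them are descriptions. Values of every library are given for the catalytic and Psme genes and, in other roles, for called genes with the largest change. In the related lists the most changed called genes have library values, a mean with SD or a log2 fold change alone. Other genes named were chosen after their values were seen. For 1 gene of the regulator list the values are not reported here. Other pseudocounts, filters, scalings, variance settings, the block and omitted libraries were tried as alternatives.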

Additional observations from a re-analysis of the deposited data

How the results depend on the processing

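The count of higher proteasome genes stayed between 25 and 40 in 16 alternatives, against 36. Of 746 values of single proteasome genes, 675 kept their call (higher, lower or not called). Scaling changed the balance over all genes. Median-of-ratios scaling gave 3445 higher and 3376 lower, against 2395 and 4631, and left 1 lower proteasome gene (1 regulatory non-ATPase gene and 0 for the inhibitor), with 3 higher assembly genes, 7 higher and 0 lower peptidases, 7 higher partners and 2 lower ubiquitin genes. Quantile normalization left 1 lower proteasome gene (1 regulatory non-ATPase and 0 for the inhibitor), with 2 higher assembly genes and 0 lower peptidases. A filter of 5 FPKM tested 6409 genes, 41 of them proteasome genes, and gave 2153 lower genes over all, with fewer genes tested. It gave 1 lower proteasome gene (1 regulatory non-ATPase, 0 for the inhibitor), 0 lower partners and 0 lower peptidases. Psmd9, Psmf1, Uchl5 and Nln did not pass that filter and were not tested under it, so these counts do not show their calls lost. No filter gave 0 lower peptidases. With the replicate block 2 assembly genes were higher and 0 peptidases lower, and no other count moved by over 1.5 times; paired differences of the 4 ratios gave p from 0.25 to 0.5 where 0.25 is the smallest possible.

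Without 1 library, or without both libraries of a replicate, counts ranged as follows. Over all genes, 1531 to 2416 were higher and 2847 to 4281 lower. Proteasome genes numbered 25 to 37 higher and 0 to 3 lower, constitutive catalytic 1 to 2 higher, ATPase 3 to 6 higher, regulatory non-ATPase 5 to 10 higher and 0 to 2 lower, the inhibitor 0 to 1 lower and assembly 0 to 2 higher. Partners gave 1 to 5 higher and 0 to 1 lower, ubiquitin genes 3 to 7 higher and 2 to 4 lower, and peptidases 1 to 3 higher and 0 to 1 lower. Beyond the smaller number of genes or libraries, the cause was not tested. Implied reads per library numbered 200 to 377 for Psmb9 and 125 to 193 for Psmg1, which were not called, and 146 to 252 for Psmg4, which was.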

Other observations

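The genes within 100 kb of the 5 proteasome genes with the largest rises were listed from the gene models after the values had been seen. Over all genes tested, 18.4% were called higher and 35.6% lower. Near Psma6 lies Nfkbia, the gene of an NF-κB inhibitor, 70956 bases away on chromosome 12. It was at 243, 208 and 252 FPKM with K7M2-EV and at 14.96, 14.6 and 13.1 FPKM with PBS, a larger change (log2 fold change 3.95, adjusted p = 1.7e-06, limma) than that of Psma6. The gene 1110008L16Rik, only 1689 bases from Psma6, was not called, at 1.16, 1.13 and 1.07 FPKM with K7M2-EV and 1.03, 1.12 and 1.03 FPKM with PBS. Ppp2r3c, also near Psma6, was higher (log2 fold change 0.41, adjusted p = 0.00107, limma), so 2 of 3 tested neighbours there were higher. Around Psmb8, 6 of 9 tested neighbours were higher and none lower, among them the class II genes H2-DMb2 and H2-DMb1 (1.29 and 1.17 on the log2 scale). Around Psme2, 5 of 13 were higher and 3 lower. Emc9, a membrane-insertion gene that ends 2139 bases from Psme2 on the side of Psme1, fell by 0.39, while both Psme genes rose. Around Psmb5, 0 of 7 were higher and 1 lower. Atg4a, 179 bases from Psmd10 on the X chromosome, rose by 0.37, against 1.32 for Psmd10. Fam192a, the older symbol of Psme3ip1, a partner of the Psme3 product, averaged 3.36 ± 0.387 FPKM with K7M2-EV and 3.64 ± 0.193 FPKM with PBS (SD, n = 3 each) and was not called.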
